A study of Mus musculus with 6 samples.

Results

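The genes described here carry mouse symbols that begin with Zfp and a digit, the zinc finger protein genes, in white blood cells and resident macrophages of the mouse brain after stroke. Of 31053 genes in the count matrices, 400 bear such a symbol, and the 290 that reached 500 or more transcript molecules (UMIs, unique molecular identifiers) over all 6 libraries are the members. The threshold is on abundance alone and uses no time or genotype. Most cells were resident macrophages, so it favours genes expressed in them. Just inside it lie Zfp11 with 516 UMIs, Zfp59 with 515 and Zfp341 with 512, and just outside it lie Zfp72 with 497, Zfp661 with 487 and Zfp428 with 484. The symbol is a naming habit rather than a family, so the members were divided by what their proteins hold. The Zfp36 group has 3 members, Zfp36, Zfp36l1 and Zfp36l2. Another 146 are KRAB-type genes, 136 have C2H2 zinc fingers without a recognised KRAB box, 4 (Zfp703, Zfp330, Zfp839 and Zfp503) have no C2H2 motif, and 1, Zfp652os, is not protein-coding in the annotation and was not classed. The search for the KRAB box missed some KRAB genes, among them Zfp445 and Zfp263, so the 136 include KRAB genes. Zfp36l3, the fourth gene of the Zfp36 group, is in the matrices but below the threshold. Every member had at least 36 UMIs in every library.

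Living CD45-positive cells were sorted from brain and their transcripts counted cell by cell with a droplet method that reads the 3' end. Each of the 6 libraries pools 3 brains of C57BL/6 mice, and there is 1 library for each combination of genotype and time. The fl/fl mice carry Cd300a alleles flanked by loxP sites and no Cre. The Lyz2-cre mice carry the same floxed Cd300a and Cre recombinase driven from the Lyz2 locus, which is active in monocytes, macrophages and neutrophils. All groups therefore share the floxed allele, and no wild-type mice were analysed here. Mice were naive, or had the middle cerebral artery occluded for 60 min with a filament and were taken 1 h or 3 h after reperfusion. The series design names the earliest point 0 h and the sample titles name it naive, and the titles were followed. Because each genotype has 1 library at each time, a contrast of times compares 2 libraries with 2 others. Genotype is a term of the model, so p-values measure the spread left between pools once time and genotype are fitted. That spread includes any difference in time course between the genotypes, and its estimate borrows from other genes.

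After filtering, 47077 cells remained, 6719 to 9611 per library, with library totals of 35479437 to 48478866 UMIs and a median of 3902 to 5225 UMIs per cell. Pairs of libraries shared 12 to 30 cell barcodes. Cells were clustered and clusters named from marker genes. Microglia are the brain's own macrophages, and microglia-like cells made up 70.3% to 87.8% of cells, and there were 154 to 1055 neutrophil-like and 121 to 821 monocyte-like cells per library. In monocyte-like cells Lyz2 stood at 19563 to 23429 CPM (UMIs scaled to the same total in every class and library) in the fl/fl libraries and at 26 to 84 CPM in the Lyz2-cre libraries, a split that follows the genotype labels. Cd300a itself was at 180 to 398 CPM in fl/fl and 87 to 185 CPM in Lyz2-cre monocyte-like cells, and a count made at the 3' end cannot tell whether the floxed exons were present. The 10 microglia markers summed to 19868 to 38432 CPM in microglia-like cells, lowest in the 3 h libraries, and none of them was at 0. Microglia-like cells of the 3 times lay mostly in different clusters: clusters 4 and 6 held naive cells, clusters 0 and 2 held 1 h cells, and clusters 1, 3, 5 and 12 held 3 h cells. Cluster 12 was led by Gdf15 and Rcan1, with no microglia marker among its top 10 genes. Top genes were ranked against cells of other classes, so they do not tell clusters of the same class apart.

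Zfp36, also called tristetraprolin, and its relatives Zfp36l1 and Zfp36l2 are RNA-binding proteins with CCCH zinc fingers. They bind AU-rich elements in the 3' untranslated region (UTR) of short-lived messages, many of them for cytokines and chemokines, and bring in the CCR4-NOT complex, which removes the poly(A) tail and starts decay. They are themselves immediate-early genes whose messages are short-lived. KRAB zinc finger proteins are DNA-binding repressors: the KRAB box recruits Trim28, which brings the histone methyltransferase Setdb1 and heterochromatin proteins, largely to transposable elements. KRAB-type genes lie in clusters of recent duplicates, here 40 on chromosome 7, 30 on chromosome 17 and 21 on chromosome 13. Reads that map equally well to several copies are not counted, so the levels of close paralogues are uncertain.

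The core element that Zfp36 proteins bind, TTATTTATT, is printed in capitals below, within 29 bases of transcript-strand sequence from the annotated 3' UTRs (GRCm38). The windows are shown because all 3 members of the Zfp36 group carry 1 such element in their own message, as do messages known to be bound by Zfp36, such as those for the cytokine Tnf, with 5, and the chemokine Cxcl2, with 4. Overlapping matches were counted separately. For each gene 1 window is given with 1 element in capitals, and the Tnf window holds another that overlaps it and is left in lower case.
Zfp36 (chr7:28376951-28376979, minus strand): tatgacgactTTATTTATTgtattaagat
Zfp36l1 (chr12:80108167-80108195, minus strand): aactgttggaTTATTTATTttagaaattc
Zfp36l2 (chr17:84184914-84184942, minus strand): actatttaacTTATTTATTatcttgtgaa
Tnf (chr17:35199689-35199717, minus strand): tttgcacttaTTATTTATTatttatttat
Cxcl2 (chr5:90905316-90905344, plus strand): gagagttcacTTATTTATTtatctatgta
Of 21125 genes with an annotated 3' UTR, 1689 (7.995%) hold the element at least 1 time. Among members it was found in 24 of 143 KRAB-type genes with an annotated 3' UTR (16.8%) and in 14 of 136 other C2H2 genes (10.3%). A match is a description of the letters and does not show that a protein binds there.

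Zfp36 and Zfp36l1 moved together in microglia-like cells, and the 250 bases before their RefSeq start sites (GRCm38.p6) are shown to set the sequences beside those values. In the Zfp36 sequence (chr7:28379229-28379478, minus strand) the capitals mark an EGR motif, GCGNGGGCG, and a CArG box, the element of serum response factor. In the Zfp36l1 sequence (chr12:80113014-80113263, minus strand) they mark a match to TGANTCA. This pattern, used here for AP-1, takes any base at its centre and is looser than the AP-1 consensus. The longest Zfp36 model of the gene annotation starts farther upstream, so this window lies inside that model.
Zfp36: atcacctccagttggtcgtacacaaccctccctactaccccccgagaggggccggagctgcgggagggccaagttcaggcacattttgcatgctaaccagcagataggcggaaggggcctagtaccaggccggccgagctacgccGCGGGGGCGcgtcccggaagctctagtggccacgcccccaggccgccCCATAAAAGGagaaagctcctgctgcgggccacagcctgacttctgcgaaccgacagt
Zfp36l1: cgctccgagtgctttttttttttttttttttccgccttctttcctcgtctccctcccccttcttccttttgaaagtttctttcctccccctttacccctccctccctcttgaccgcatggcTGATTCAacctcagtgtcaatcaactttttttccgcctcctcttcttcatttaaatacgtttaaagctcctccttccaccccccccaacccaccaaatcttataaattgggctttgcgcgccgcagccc
Both strands of the same 250 bases were searched in 32851 promoters for 5 motifs of stimulus-responsive factors, with overlapping motifs counted separately. The loose AP-1 pattern was present in 6.75%, EGR in 4.70%, the CArG box in 1.47%, the cAMP response element TGACGTCA in 1.55% and an NF-kB motif in 1.41%. Of 142 promoters matched to 127 KRAB-type genes, 3 held the AP-1 pattern (2.11%), 3 the EGR motif (2.11%) and 1 the CArG box (0.704%). The cAMP response element was in 5 of them (3.52%) and the NF-kB motif in 7 (4.93%). Of 141 promoters matched to 109 other C2H2 genes, 4 held the AP-1 pattern (2.84%), 8 an EGR motif (5.67%) and 1 the CArG box (0.709%). The cAMP response element was in 5 of these (3.55%) and an NF-kB motif in 0.

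The Zfp36 group was the most abundant of the sets for its size. Its 3 genes took 34.8% of all member UMIs, against 18.7% for the 146 KRAB-type genes and 44.98% for the 136 other C2H2 genes. Zfp36 alone had 365421 UMIs, Zfp36l1 210525 and Zfp36l2 158205, and the next members, Zfp706 and Zfp644, had 54359 and 37207. A 3' library gives 1 tag per transcript molecule whatever its length, so these counts were compared between genes without dividing by length. Members together took 0.840% of all UMIs.

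Zfp36 was highest in microglia-like cells and in border-associated macrophage-like cells, and lowest in lymphocytes. In microglia-like cells it ranged from 782 to 2782 CPM over the 6 libraries, with a mean of 1734 ± 746 (SD, n = 6), and in border-associated macrophage-like cells it averaged 1213 ± 222 CPM. Neutrophil-like cells followed with 956 ± 296 CPM, dendritic-like cells with 804 ± 171 and monocyte-like cells with 698 ± 133. These ranges overlap, and neighbours in the order do not differ beyond their spread. B-cell-like cells held 399 ± 67.4 CPM, natural-killer-like cells 234 ± 141 and T-cell-like cells 166 ± 42.8 CPM. The highest T-cell-like library, at 213 CPM, lay below the lowest neutrophil-like one, at 518 CPM. Zfp36l1 had much the same leaders, with 1026 ± 339 CPM in microglia-like and 977 ± 242 CPM in border-associated macrophage-like cells, but its lowest means were in monocyte-like cells, 178 ± 65.3 CPM, and neutrophil-like cells, 185 ± 140 CPM. Zfp36l2 had another order: 1175 ± 387 CPM in natural-killer-like and 772 ± 71.8 CPM in T-cell-like cells, 648 ± 93.3 CPM in microglia-like cells, and 382 ± 171 CPM in neutrophil-like cells. The SD over 6 libraries includes the differences between times and genotypes.

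**Figure D1:**
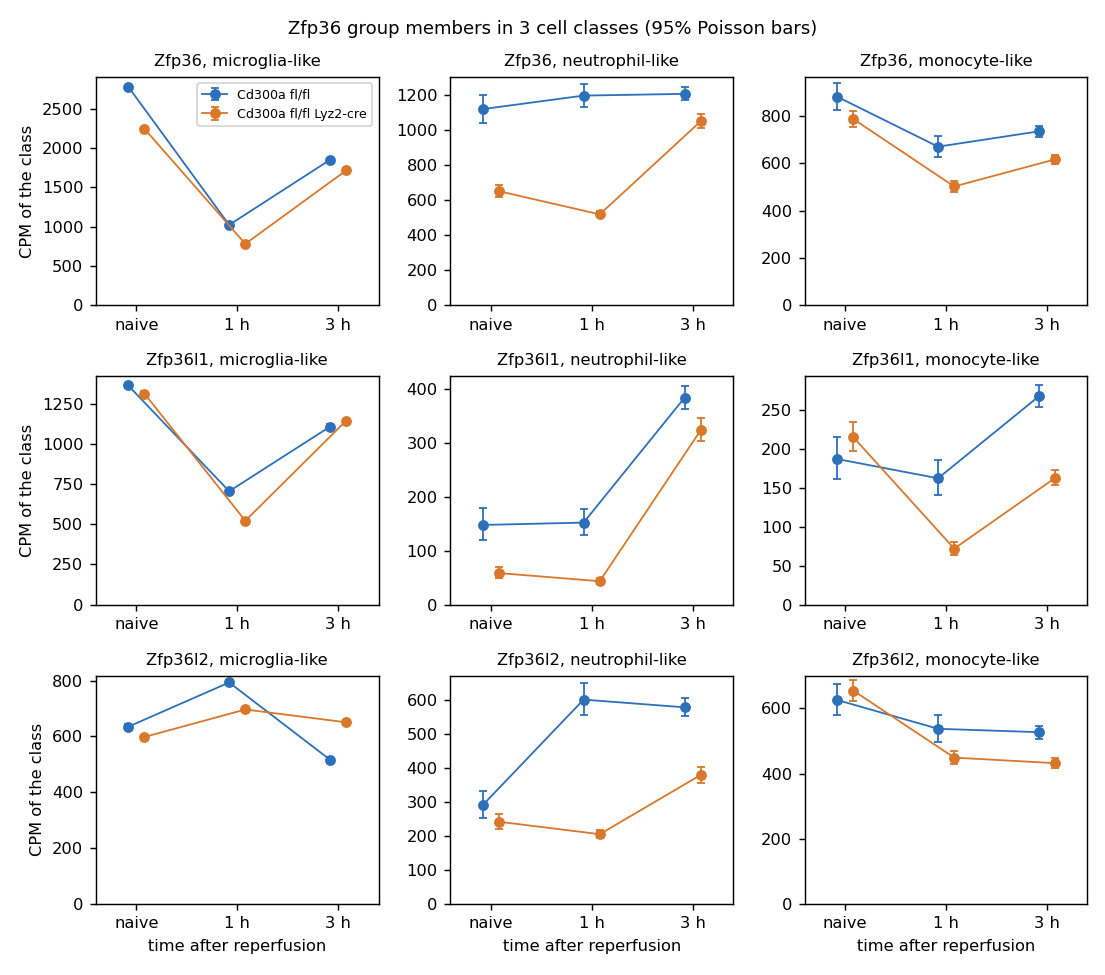
Level of Zfp36, Zfp36l1 and Zfp36l2 (CPM of the class total, vertical axes) by time (horizontal axis: naive, 1 h, 3 h) in microglia-like, neutrophil-like and monocyte-like cells, with 1 point per library and 1 line per genotype. In microglia-like cells Zfp36 falls from 2782 and 2247 CPM in naive brain to 1024 and 782 CPM after 1 h in both genotypes, while Zfp36l2 stays between 516 and 793 CPM.

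One hour after reperfusion the microglia-like cells held less Zfp36 and Zfp36l1 message than in naive brain, and at 3 h the level of both was up again. Zfp36 stood at 2782 CPM in the fl/fl and 2247 CPM in the Lyz2-cre naive library, at 1024 and 782 CPM after 1 h, and at 1852 and 1717 CPM after 3 h. Both 1 h libraries lie below all others, and both naive libraries above all others. Zfp36l1 stood at 1364 and 1314 CPM in naive, 705 and 522 CPM after 1 h, and 1108 and 1145 CPM after 3 h, with the same order of times. Zfp36l2 did not share this course: it stood at 634 and 598 CPM in naive, 793 and 696 CPM after 1 h, and 516 and 650 CPM after 3 h, so that the 1 h libraries were highest and the naive and 3 h libraries overlapped. Summed over the 3 genes, the 1 h level was 0.528 times the naive level in fl/fl mice (95% counting interval 0.523 to 0.532) and 0.481 times in Lyz2-cre mice (0.476 to 0.486). These intervals cover counting error only and not the difference between pools of mice.

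The fall at 1 h was tested with edgeR's quasi-likelihood test over all genes with Benjamini-Hochberg adjustment, in a model with genotype and time. Zfp36 fell by 1.37 on the log2 scale (SE 0.09, adjusted p = 2.84e-05) and Zfp36l1 fell by 1.02 (SE 0.11, adjusted p = 0.000272), and both calls held without any 1 library and under every other setting run. From 1 h to 3 h Zfp36 rose by 0.97 (SE 0.09, adjusted p = 8.62e-05) and Zfp36l1 by 0.87 (SE 0.11, adjusted p = 0.000261). At 3 h Zfp36 remained below naive by a log2 change of -0.40 (SE 0.09, adjusted p = 0.00624), whereas Zfp36l1, at -0.16 (SE 0.11), did not pass the test (adjusted p = 0.241). The 3 h call of Zfp36 was lost without cluster 1, led by Csmd3 (the change over the remaining cells was -0.16, adjusted p = 0.220), without the fl/fl naive library (-0.37, adjusted p = 0.112) and without the Lyz2-cre naive library (-0.44, adjusted p = 0.0628). Zfp36l2 rose at 1 h by 0.39 (SE 0.11, adjusted p = 0.0303) and fell by 0.38 from 1 h to 3 h (SE 0.11, adjusted p = 0.0191). The 1 h rise was lost when counts were scaled by totals alone (0.27, adjusted p = 0.120), without the cluster led by Csmd3 (adjusted p = 0.0544), and without any 1 of the 4 naive and 1 h libraries (adjusted p = 0.0548 without Lyz2-cre 1 h, 0.103 without fl/fl naive, 0.254 without fl/fl 1 h and 0.275 without Lyz2-cre naive). The later fall was lost without fl/fl 1 h (adjusted p = 0.158), without fl/fl 3 h (adjusted p = 0.196) and without that cluster (adjusted p = 0.0534).

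Within microglia-like cells the level of the Zfp36 group varied by cluster as well as by time. The clustering used these genes among all others, so the values are a description. At 1 h cluster 0, which held 36.3% of the fl/fl and 55.8% of the Lyz2-cre microglia-like cells, had 331 and 438 CPM of Zfp36, while cluster 2, with 41.9% and 32.9%, had 1468 and 1274 CPM. Cluster 2 was led by Rcan1, with the microglia marker Sparc next, and cluster 0 by Sparc. That ranking, against other classes, does not tell which genes separate these clusters. The naive clusters 4 and 6 both stood between 2260 and 2852 CPM. At 3 h cluster 12, led by Gdf15, had 2501 and 2426 CPM of Zfp36 and only 273 and 484 CPM of Zfp36l2, and cluster 3 had the highest Zfp36l1, at 2408 and 1994 CPM. Cluster 1, led by Csmd3, had 169 and 290 CPM of Zfp36, below the other large 3 h clusters, with the highest KRAB-type sum of them in the fl/fl library, 2555 CPM.

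**Figure D2:**
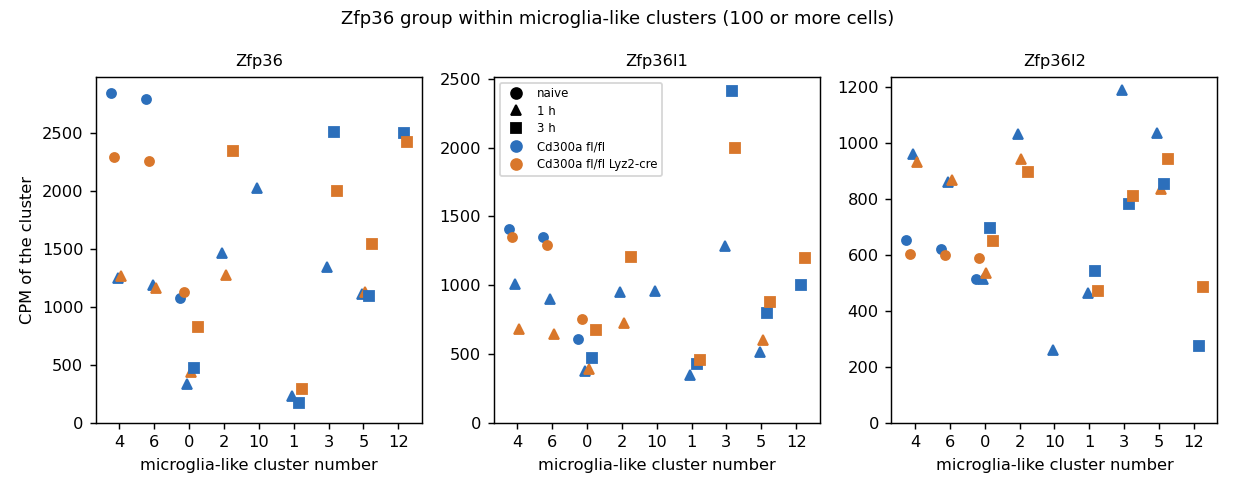
Level of Zfp36, Zfp36l1 and Zfp36l2 (CPM) in each microglia-like cluster with at least 100 cells in a library, with 1 point per cluster and library. At 1 h cluster 0 (331 and 438 CPM of Zfp36) and cluster 2 (1468 and 1274 CPM) stand apart, and at 3 h cluster 1 (169 and 290 CPM) stands below clusters 3 and 12.

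In neutrophil-like cells no member of the Zfp36 group passed the test at 1 h, and all 3 were higher than naive at 3 h. Zfp36 stood at 1118 and 651 CPM in naive fl/fl and Lyz2-cre mice, 1195 and 518 CPM after 1 h, and 1205 and 1049 CPM after 3 h. The fl/fl libraries were nearly level, and the difference between times lay in the Lyz2-cre libraries. Zfp36l1 stood at 148 and 58.5 CPM in naive, 152 and 43.4 CPM after 1 h, and 384 and 324 CPM after 3 h, so that both 3 h libraries lay above the 4 earlier ones. Zfp36l2 stood at 290 and 241 CPM in naive, 601 and 205 CPM after 1 h, and 578 and 379 CPM after 3 h. At 3 h against naive Zfp36l1 rose by 2.32 on the log2 scale (SE 0.31, edgeR adjusted p = 0.000323), Zfp36l2 by 1.15 (SE 0.29, adjusted p = 0.0136) and Zfp36 by 0.77 (SE 0.26, adjusted p = 0.0433). At 1 h the changes were -0.08, 0.49 and -0.01 for Zfp36l1, Zfp36l2 and Zfp36, and none passed the test. The Lyz2-cre library was lower after 1 h than in naive for all 3 genes. TMM scaling (trimmed mean of M-values, edgeR's default) adds 0.37 on the log2 scale to every gene at 3 h against naive in this class. With counts scaled by totals alone Zfp36l1 was still called, while Zfp36 changed by 0.42 (adjusted p = 0.287) and Zfp36l2 by 0.79 (adjusted p = 0.0891). The Zfp36 call was also lost without doublet removal (adjusted p = 0.203) and without the Lyz2-cre 3 h (0.217), Lyz2-cre naive (0.347) or fl/fl naive (0.385) library, and the Zfp36l2 call without fl/fl naive (0.360). At 3 h 93.2% and 92.5% of the neutrophil-like cells lay in cluster 18, led by Retnlg and holding Cxcr2 among its top genes, while cluster 8, led by the granule genes Ngp, Camp and Ltf, held 35.1% and 42.0% of the naive cells and 3.13% and 2.90% of the 3 h cells. The microglia markers in neutrophil-like cells summed to 2731 and 779 CPM in naive, 2795 and 1509 CPM after 1 h, and 335 and 597 CPM after 3 h. The part of both in the result was not tested.

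In monocyte-like cells no member of the Zfp36 group passed the test against naive brain at either time. Zfp36 stood at 880 and 786 CPM in naive, 669 and 501 CPM after 1 h, and 734 and 616 CPM after 3 h. The 1 h libraries were lower than the naive ones, with a log2 change of -0.48 (SE 0.14, edgeR adjusted p = 0.194). Zfp36l2 lay between 432 and 655 CPM in all 6 libraries. Zfp36l1 stood at 187 and 216 CPM in naive, 163 and 72.1 CPM after 1 h, and 268 and 163 CPM after 3 h, and it rose by 1.11 from 1 h to 3 h (SE 0.28, adjusted p = 0.0245). This call was lost when cells with an S100a8 or S100a9 UMI were left out (0.61, adjusted p = 0.174) and without the Lyz2-cre 1 h library (0.73, adjusted p = 0.175). The monocyte-like cells of the 2 genotypes lay in part in different clusters, with cluster 16 holding 37.2% to 80.6% of fl/fl cells and cluster 14 holding 30.7% to 77.1% of Lyz2-cre cells. Cluster 15, led by Ace, was shared by the genotypes but changed with time. It held 52.1% of fl/fl and 69.3% of Lyz2-cre cells in naive, 49.7% and 41.9% after 1 h, and 14.7% and 21.2% after 3 h. The 3 h contrasts of monocyte-like cells, here and below, thus compare different mixtures of clusters. The part of this shift in them was not tested.

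The difference between classes was tested itself, as an interaction of class and time with the library as a block. The Zfp36 change at 1 h was lower in microglia-like than in neutrophil-like cells by a log2 difference of -1.33 (SE 0.29, edgeR adjusted p = 0.00628) and lower than in monocyte-like cells by -0.92 (SE 0.18, adjusted p = 0.00114). These 2 differences were lost without either naive library, with adjusted p of 0.481 and 0.778 against neutrophil-like and 0.121 and 0.127 against monocyte-like cells, and the first also without fl/fl 1 h (0.0646). At 3 h all 3 genes changed less upward in microglia-like than in neutrophil-like cells, by -1.25 for Zfp36 (adjusted p = 0.00137), -2.54 for Zfp36l1 (adjusted p = 3.22e-09) and -1.26 for Zfp36l2 (adjusted p = 0.00118). The Zfp36l1 difference held without any 1 library. The Zfp36 difference was lost without the fl/fl naive (adjusted p = 0.169) or Lyz2-cre naive library (0.165), and the Zfp36l2 difference without fl/fl naive (0.491). All 290 members entered these tests, although only 131 passed the low-count filter in neutrophil-like and 201 in monocyte-like cells, so nothing is read from the counts. Of them 1 differed at 1 h against neutrophil-like cells, where 1.27% of all genes tested did (0.358% higher and 0.913% lower), and 20 differed at 3 h, 7 higher and 13 lower, where 17.2% did (6.77% higher and 10.4% lower). Against monocyte-like cells 2 differed at 1 h, where 2.41% of all genes did (1.54% higher and 0.875% lower), and 14 at 3 h, 5 higher and 9 lower, where 17.6% did (9.80% higher and 7.76% lower).

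Genotype moved no member past the test in any of the 3 classes. In microglia-like cells 0 of 290 members were called by edgeR (0.402% of all genes were, 0.0387% higher and 0.364% lower), 15 had an unadjusted p under 0.05, and DESeq2 called 1, Zfp36, with a log2 change of -0.33 (adjusted p = 0.00404). In edgeR Zfp36 was lower in Lyz2-cre cells by a log2 change of -0.32 (SE 0.07, adjusted p = 0.157), with the Lyz2-cre library below the fl/fl library at all 3 times. Within single clusters the order varied. Of the large 1 h clusters, Lyz2-cre was above fl/fl in cluster 0 (438 and 331 CPM) and below it in cluster 2 (1274 and 1468 CPM). Of the large 3 h clusters, it was above in clusters 1 and 5 and below in clusters 3 and 12. It was below in the naive clusters 4 and 6. Cluster 0 held 55.8% of Lyz2-cre and 36.3% of fl/fl microglia-like cells after 1 h. The part of cluster make-up was not tested. In neutrophil-like cells 0 of 131 tested members were called (0.0240% of all genes), 5 had an unadjusted p under 0.05 and DESeq2 called 0. The 3 genes of the Zfp36 group had changes of -0.66, -1.04 and -0.75 there. Zfp36 and Zfp36l1 passed the test without the fl/fl 3 h library (adjusted p = 0.0265 and 1.65e-05) and without the Lyz2-cre 3 h library (0.0192 and 1.41e-05). Summed microglia markers in these cells also differed by genotype: fl/fl naive 2731 CPM, Lyz2-cre naive 779 CPM, fl/fl 1 h 2795 CPM, Lyz2-cre 1 h 1509 CPM. The order was reversed after 3 h (fl/fl 335 CPM, Lyz2-cre 597 CPM). Cluster 8 made up 14.6% of fl/fl and 41.8% of Lyz2-cre neutrophil-like cells after 1 h (naive 35.1% and 42.0%). The part of both in the genotype changes was not tested. In monocyte-like cells 0 of 201 members were called (0% of all genes), 5 had an unadjusted p under 0.05 and DESeq2 called 0.

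KRAB-type genes were expressed at low levels, most of all in microglia-like cells. Their sum was 1552 to 2124 CPM in microglia-like cells, 980 to 1286 in T-cell-like, 1126 to 1381 in natural-killer-like and 1171 to 1403 in B-cell-like cells, 875 to 1449 in border-associated macrophage-like, 740 to 969 in dendritic-like and monocyte-like cells, and 352 to 562 CPM in neutrophil-like cells. The microglia-like range lies above that of every other class in these libraries and the neutrophil-like range below. A single KRAB-type gene had a median level of 7.92 CPM in microglia-like cells, against 18.5 CPM for the other C2H2 genes. Zfp90 was the highest of them, at 83.0 to 110.3 CPM (110 and 110 in naive, 85.9 and 83.5 at 1 h, 83.0 and 100 at 3 h), and in every other class tested with enough cells Zfp871 led, with means from 35.4 CPM in neutrophil-like to 66.0 CPM in B-cell-like cells. Of the 146 KRAB-type genes 81 had their highest mean in microglia-like cells, 23 in B-cell-like and 19 in natural-killer-like cells, and 0 in neutrophil-like cells. Classes with fewer UMIs have noisier means, so a highest place there can rest on few counts. The member threshold counts UMIs over whole libraries, in which microglia-like cells were 70.3% to 87.8% of cells. Of 205 KRAB-type symbols in the matrices 146 passed it. The threshold favours genes high in microglia-like cells, and so favours both their sum and their number of highest places.

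**Figure D3:**
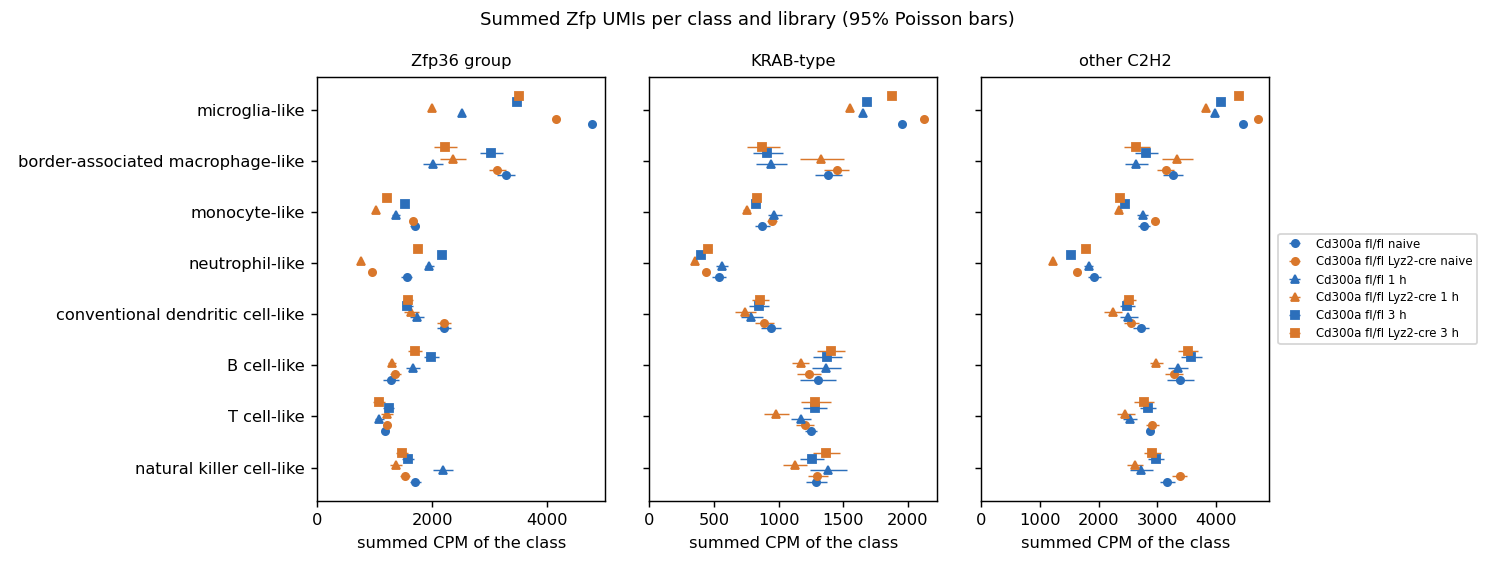
Summed level (CPM of the class total, horizontal axes) of the Zfp36 group, the KRAB-type genes and the other C2H2 genes in each library, for 8 cell classes (vertical axis), with bars for exact 95% Poisson intervals. The KRAB-type sum is highest in microglia-like cells (1552 to 2124 CPM) and lowest in neutrophil-like cells (352 to 562 CPM).

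At 1 h many KRAB-type genes stood lower in microglia-like cells and none passed the test as higher. Their sum stood at 1955 and 2124 CPM in naive, 1651 and 1552 CPM after 1 h, and 1687 and 1877 CPM after 3 h. The ratio of 1 h to naive was 0.844 in fl/fl (95% counting interval 0.834 to 0.855) and 0.731 in Lyz2-cre mice (0.722 to 0.740). Of 146 genes 42 fell and 0 rose, and 120 had a log2 change below 0, with a median of -0.28 beside -0.02 for all genes tested. Over all members 7 rose and 71 fell, 78 in all, where 14.0% of all genes rose, 12.6% fell and 26.6% changed. The 78 members are 26.9% of the 290, near the background share, and their division by direction is not near that of all genes. With DESeq2 10.7% of members and 16.9% of all genes were called. The other C2H2 genes stood between, with 6 higher, 25 lower and a median of -0.16.

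These counts depend on single libraries and on scaling. Without Lyz2-cre naive the members called at 1 h numbered 11, without Lyz2-cre 1 h 12, without fl/fl 1 h 15 and without fl/fl naive 16, while 6.75% to 8.80% of all genes were called in those 4 fits. Without fl/fl 3 h they numbered 116 and without Lyz2-cre 3 h 119, where 35.4% and 35.3% of all genes were called. KRAB-type genes called lower ran from 2 to 62 over these 6 fits, being 2 to 7 without a naive or 1 h library, while their median stayed between -0.36 and -0.21. DESeq2 called 11 of them lower and 0 higher. Those called higher numbered 1 with RLE size factors, without S100a8 or S100a9 cells, without doublet removal and without the low-count filter, and 2 without either 3 h library. With counts scaled by totals alone 118 members were called, 3 higher and 115 lower, among them 63 KRAB-type genes, all lower, where 28.2% of all genes were called, 1068 higher and 2579 lower. The KRAB-type median was then -0.39 beside -0.13 for all genes. TMM scaling thus adds 0.11 to every log2 change at 1 h, and the difference between the KRAB-type median and that of all genes stayed similar.

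**Figure D4:**
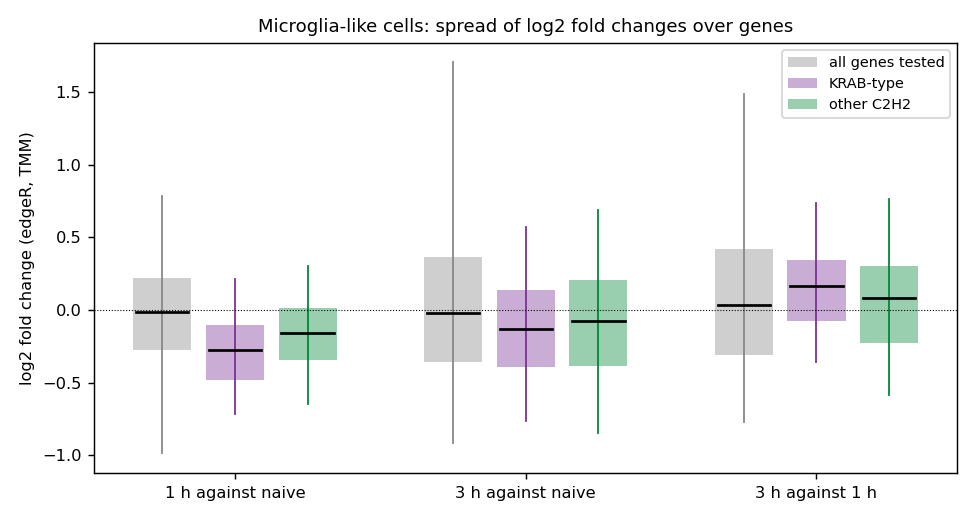
Distribution of log2 fold changes in microglia-like cells for all genes tested, KRAB-type genes and other C2H2 genes in the 3 contrasts of times. Boxes span the 25th to 75th percentile, lines the 5th to 95th, and black marks the median: for KRAB-type genes -0.28 at 1 h against naive, -0.13 at 3 h against naive and 0.17 at 3 h against 1 h.

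Among KRAB-type genes that fell at 1 h, Zfp658 was the most abundant of those with the largest changes. It lies on chromosome 7 (chr7:43562256-43575461) next to its relative Zfp719. Zfp658 stood at 48.4 and 52.9 CPM in naive fl/fl and Lyz2-cre mice, 25.8 and 28.2 CPM after 1 h, and 19.8 and 27.4 CPM after 3 h. Both naive libraries lie well above the other 4. It fell by 0.80 on the log2 scale at 1 h (SE 0.10, edgeR adjusted p = 0.000623) and by 1.02 at 3 h (SE 0.10, adjusted p = 6.37e-05). Zfp560 stood at 25.5 and 28.1 CPM in naive, 14.0 and 16.3 CPM after 1 h and 15.0 and 16.4 CPM after 3 h, and fell by 0.71 at 1 h (SE 0.10, adjusted p = 0.00129). Both calls at 1 h held under every setting run. The other large falls were in genes at under 10 CPM: Zfp966, Zfp61, Zfp112, Zfp583, Zfp229 and Zfp870, with log2 changes from -1.12 to -0.73. Each of these 6 was lost without the Lyz2-cre 1 h or without the Lyz2-cre naive library, with adjusted p from 0.0634 to 0.276.

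Of 146 KRAB-type genes, 19 stood higher and 35 lower at 3 h than in naive brain, with a median of -0.13, and from 1 h to 3 h 30 rose and 8 fell, with a median of 0.17. Over all members 51 rose and 73 fell at 3 h, 124 in all, where 24.5% of all genes rose, 23.0% fell and 47.5% changed. From 1 h to 3 h 75 rose and 32 fell, 107 in all, where 25.1% of all genes rose, 21.8% fell and 46.9% changed. These shares of members called lie below the background. Of the 42 KRAB-type genes that fell at 1 h, 17 were also below naive at 3 h, 1 was above it, and 12 rose from 1 h to 3 h, contrasts that share libraries with the first. The division by direction at 3 h depends on the setting. Without the cluster led by Csmd3, 30 of all members stood higher and 87 lower than naive, among them 8 and 41 KRAB-type genes, where 3076 of all 12877 genes tested stood higher and 3365 lower. From 1 h to 3 h that setting gave 52 members higher and 42 lower, among them 19 and 15 KRAB-type genes, where 3115 of all genes were higher and 3117 lower. Scaled by totals alone, 29 members stood higher and 89 lower at 3 h, among them 9 and 44 KRAB-type genes, where 2543 of all 12920 genes stood higher and 3715 lower. Without fl/fl naive 2 KRAB-type genes stood higher and 10 lower at 3 h.

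Zfp655 and Zfp810 were among the better expressed of the KRAB-type genes named at 3 h. Zfp655 stood at 19.5 and 23.3 CPM in naive, 24.9 and 19.8 CPM after 1 h, and 53.7 and 40.2 CPM after 3 h. It rose by 1.20 at 3 h against naive (SE 0.17, edgeR adjusted p = 0.00229) and by 1.04 against 1 h (SE 0.17, adjusted p = 0.00382). Zfp810 stood at 28.4 and 28.3 CPM in naive, 19.2 and 20.2 CPM after 1 h, and 9.61 and 16.8 CPM after 3 h, and was lower at 3 h than in naive by a log2 change of -1.03 (SE 0.18, adjusted p = 0.00442). Zfp113 stood at 31.1 and 36.4 CPM in naive and 15.9 and 20.2 CPM after 3 h, a change of -0.81 (SE 0.12, adjusted p = 0.000616). Zfp809, a gene known for silencing retroviral DNA in embryonic stem cells, lies beside Zfp810 on chromosome 9. It stood at 10.9 and 14.0 CPM in naive, 7.95 and 6.73 CPM after 1 h, and 13.2 and 13.03 CPM after 3 h, and rose by 0.81 from 1 h to 3 h (SE 0.15, adjusted p = 0.00226), a call lost without Lyz2-cre 1 h (adjusted p = 0.0510). Both 1 h libraries lie below the other 4.

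Several low KRAB-type genes rose to 3 h. Zfp382 was at 1.27 and 2.15 CPM in naive and at 4.66 and 3.53 CPM after 3 h, a change of 1.33 (SE 0.29, edgeR adjusted p = 0.00517) that was lost without fl/fl naive (adjusted p = 0.0851). Zfp971 went from 0.986 and 1.21 CPM after 1 h to 3.22 and 3.05 CPM after 3 h, a rise of 1.49, and Zfp966 from 1.61 and 1.35 to 4.18 and 3.56 CPM, a rise of 1.35. Zfp583 rose by 0.98 over the same interval. The rises of these last 3 genes from 1 h to 3 h held under every setting run. Zfp869 and Zfp993 rose by 0.77 and 0.75, and were lost with DESeq2 (adjusted p = 0.0652 and 0.112) and without the cluster led by Csmd3 (0.108 and 0.0768). Zfp647 and Zfp763 stood lower at 3 h than in naive by -0.82 and -0.81, and each was lost without either naive library (adjusted p from 0.0597 to 0.0790).

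**Figure D5:**
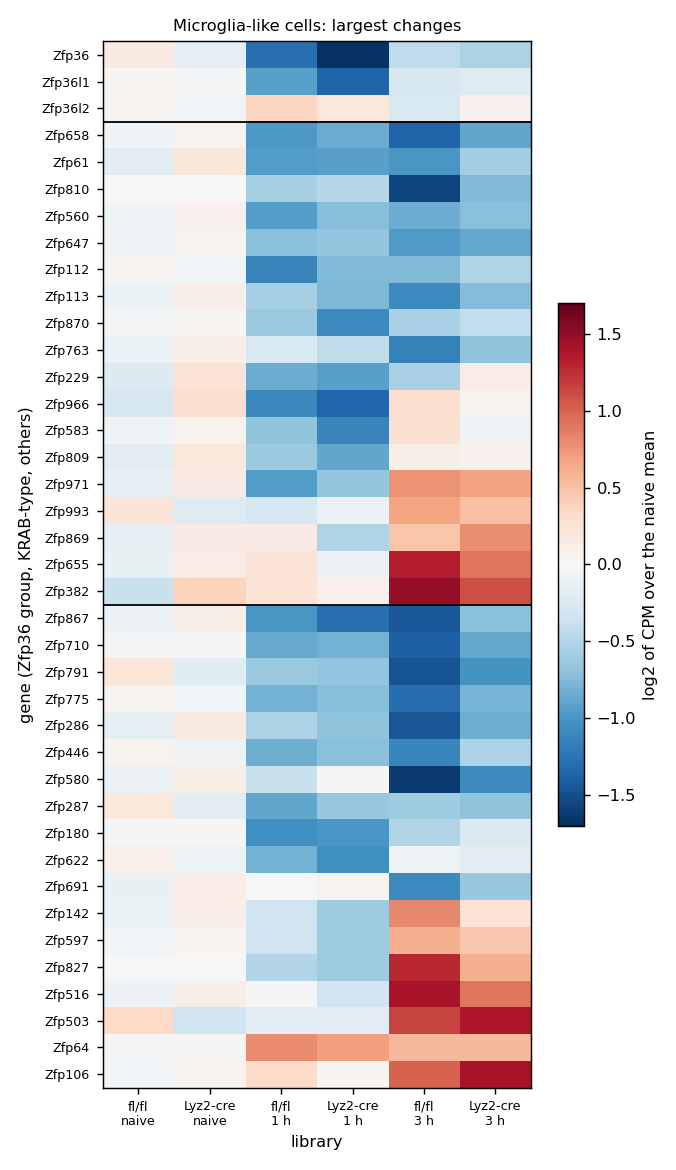
Log2 level in each library minus the mean log2 level of the 2 naive libraries (colour) for 39 named members in microglia-like cells, grouped as Zfp36 group, KRAB-type and other members (vertical axis), by library (horizontal axis). Zfp658 and Zfp710 are low at both later times, Zfp36 is lowest at 1 h, and Zfp655, Zfp106 and Zfp516 are highest at 3 h.

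Among the other members, which can include KRAB genes that the pattern missed, the changes at 1 h ran in both directions. Zfp64, a C2H2 protein, stood at 18.3 and 18.7 CPM in naive, 32.2 and 30.04 CPM after 1 h, and 27.0 and 27.1 CPM after 3 h. Both 1 h libraries were the highest and both naive the lowest, and the gene rose by 0.86 at 1 h (SE 0.09, edgeR adjusted p = 0.000253). Zfp622, known for its part in maturing the large ribosomal subunit, stood at 87.8 and 77.4 CPM in naive, 47.1 and 39.9 CPM after 1 h, and 77.6 and 72.6 CPM after 3 h. It fell by 0.81 at 1 h (SE 0.08, adjusted p = 0.000139), with a course like that of Zfp36. Zfp180 stood at 17.1 and 17.7 CPM in naive and at 8.48 and 8.76 CPM after 1 h, a change of -0.90 (SE 0.11, adjusted p = 0.000742). These 3 calls held under every setting run. The other risers at 1 h were Zfp397, Zfp512, Zfp579, Zfp422 and Zfp326, with changes of 0.32 to 0.51, which fall outside the rule for named genes and were chosen after their values were seen. Zfp867, at -1.01, was lost without Lyz2-cre 1 h (adjusted p = 0.131), Lyz2-cre naive (0.107) or fl/fl naive (0.114), and Zfp446, Zfp775 and Zfp287, at -0.66 to -0.65, were lost without any 1 of the 4 naive and 1 h libraries (adjusted p from 0.0596 to 0.418).

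At 3 h Zfp106, Zfp516, Zfp580 and Zfp710 were among the members not classed as KRAB-type with the largest changes. Zfp106, an RNA-binding protein needed by motor neurons and muscle, stood at 46.3 and 49.1 CPM in naive, 59.3 and 48.8 CPM after 1 h, and 95.4 and 126 CPM after 3 h, and rose by 1.29 (SE 0.13, edgeR adjusted p = 0.000315). Zfp516, a transcription factor best known from brown fat, stood at 31.9 and 36.9 CPM in naive, 33.4 and 27.3 CPM after 1 h, and 90.7 and 64.4 CPM after 3 h, and rose by 1.24 (SE 0.18, adjusted p = 0.00310). Both 3 h libraries of each gene lie above the other 4. Zfp580 stood at 25.5 and 29.4 CPM in naive, 21.1 and 27.0 CPM after 1 h, and 8.89 and 12.9 CPM after 3 h, and was lower by a log2 change of -1.26 (SE 0.11, adjusted p = 3.44e-05). Zfp710 stood at 217 and 223 CPM in naive, 122 and 126 CPM after 1 h, and 83.7 and 120 CPM after 3 h, and fell by 0.71 at 1 h (SE 0.11, adjusted p = 0.00235) and by 1.04 at 3 h (SE 0.11, adjusted p = 0.000144). Its naive libraries stand far above the rest, and its 1 h call was lost without fl/fl naive (adjusted p = 0.0520). Zfp706, the most abundant member after the Zfp36 group, lay at 276 and 285 CPM in naive and 151 and 178 CPM after 3 h.

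Another of these members, Zfp827, known to act at telomeres with the NuRD complex, stood at 6.84 and 6.80 CPM in naive, 4.83 and 4.48 CPM after 1 h, and 16.6 and 10.4 CPM after 3 h, and rose by 1.49 from 1 h to 3 h (SE 0.19, edgeR adjusted p = 0.000430). Its change against naive, 1.04, was lost without fl/fl naive (adjusted p = 0.0573). Zfp503 rose by 1.34 against naive, a call lost without Lyz2-cre naive (adjusted p = 0.0561), and by 1.43 against 1 h. Zfp142 and Zfp597 rose by 0.99 and 0.97 from 1 h to 3 h, and Zfp691, at 69.4 and 72.5 CPM after 1 h and 32.9 and 44.6 CPM after 3 h, fell by 0.91. Zfp791 and Zfp286 stood below naive at 3 h by -1.13 and -1.02, and were lost without fl/fl naive (adjusted p = 0.0927) and without Lyz2-cre naive (0.0543) respectively.

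In neutrophil-like cells 131 members passed the filter on low counts, 46 of them KRAB-type. At 1 h edgeR called 0 (0.409% of all genes were called), 11 had an unadjusted p under 0.05, and DESeq2 called 0. At 3 h 13 rose and 4 fell, where 18.0% of all genes rose, 11.4% fell and 29.4% changed, and from 1 h to 3 h 16 rose and 7 fell, where 19.1% rose, 16.4% fell and 35.6% changed. Scaled by totals alone these counts were 5 higher and 10 lower, and 11 and 11, so the direction of the counts rests on the scaling. Zfp281, a transcription factor known from pluripotent stem cells, stood at 52.2 and 39.8 CPM in naive, 57.6 and 31.5 CPM after 1 h, and 140 and 206 CPM after 3 h. Both 3 h libraries lie above the rest, and it rose by 2.29 against naive (SE 0.30, edgeR adjusted p = 0.000280) under every setting run. Zfp263 stood at 26.1 and 19.2 CPM in naive and 46.8 and 72.5 CPM after 3 h, and rose by 1.79 (SE 0.35, adjusted p = 0.00364). Zfp719, the neighbour of Zfp658, stood at 15.9 and 7.38 CPM in naive, 16.7 and 5.56 CPM after 1 h, and 21.8 and 28.1 CPM after 3 h. It rose by 1.60 (SE 0.43, adjusted p = 0.0166), lost with totals alone (adjusted p = 0.0897) and without Lyz2-cre 3 h (0.200), Lyz2-cre naive (0.130) or fl/fl naive (0.0535). The other named changes, Zfp51 (1.44), Zfp821 (1.90) and Zfp141 (-1.82) against naive, rested on as few as 2 to 6 UMIs in a library, and each was lost without fl/fl naive (adjusted p from 0.104 to 0.194). Those from 1 h to 3 h, Zfp825, Zfp715, Zfp871, Zfp953, Zfp367 and Zfp422, had log2 changes between -2.36 and 2.39, and each was lost without Lyz2-cre 1 h (adjusted p from 0.173 to 0.525).

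In monocyte-like cells 201 members passed the filter, 93 of them KRAB-type. At 1 h edgeR called 0 (0.313% of all genes were called, 0.212% higher and 0.101% lower), 16 had an unadjusted p under 0.05, and DESeq2 called 0. At 3 h 4 rose and 5 fell, 9 in all, where 10.0% of all genes rose, 11.3% fell and 21.3% changed, and from 1 h to 3 h 10 rose and 6 fell, 16 in all, where 9.97% rose, 10.1% fell and 20.1% changed. With totals alone the counts were 2 higher and 10 lower, and 4 and 7. Zfp367, a gene known for a part in cell cycle control, stood at 7.81 and 8.06 CPM in naive, 10.1 and 9.96 CPM after 1 h, and 1.38 and 2.25 CPM after 3 h. It was lower at 3 h than at 1 h by a log2 change of -2.23 (SE 0.41, edgeR adjusted p = 0.00488), lost without Lyz2-cre 1 h (adjusted p = 0.0619). Zfp281 stood at 22.5 and 25.8 CPM in naive, 41.8 and 23.3 CPM after 1 h and 49.5 and 41.6 CPM after 3 h, and rose by 1.06 against naive (SE 0.25, adjusted p = 0.0132), lost without Lyz2-cre 3 h (0.0602) and fl/fl naive (0.118). Zfp703 stood at 28.7 and 21.7 CPM after 1 h and 54.8 and 56.8 CPM after 3 h and rose by 1.36 (SE 0.20, adjusted p = 0.00178) under every setting run. Zfp719 rose by 1.47 against naive and Zfp710 changed by -0.82, and both were lost without Lyz2-cre 3 h (adjusted p = 0.352 and 0.341) and Lyz2-cre naive (0.252 and 0.431). Zfp950, Zfp953 and Zfp654 rose by 0.84, 1.52 and 1.12 from 1 h to 3 h and were lost with DESeq2 (adjusted p from 0.261 to 0.327) and without Lyz2-cre 1 h, Lyz2-cre 3 h or fl/fl 3 h.

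Zfp658 and Zfp719 are a neighbouring KRAB-type pair whose change at 3 h differed by class. The change of Zfp658 at 3 h was lower in microglia-like than in monocyte-like cells by a log2 difference of -2.46 (SE 0.39, edgeR adjusted p = 3.75e-05), and that of Zfp719 by -1.75 (SE 0.36, adjusted p = 0.000497). Both held without any 1 library. In monocyte-like cells Zfp658 was at only 7.81 and 4.44 CPM in naive and 10.1 and 14.6 CPM after 3 h, with 8 and 11 UMIs in the naive libraries, and did not itself pass the test there. Zfp719 in monocyte-like cells was also low, at 7.81 and 4.44 CPM in naive and 13.2 and 13.8 CPM after 3 h, with as few as 8 UMIs in a library. Its own rise there was lost without Lyz2-cre 3 h or Lyz2-cre naive. In microglia-like cells Zfp719 was at 27.8 and 24.7 CPM in naive and 17.2 and 25.1 CPM after 3 h and did not pass the test. In neutrophil-like cells Zfp658 had 0 to 10 UMIs in a library.

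The partners of these proteins were followed through lists of genes known for each role. Of 39 genes for deadenylation and decay, among them the CCR4-NOT subunits, 3 rose (7.69%) and 7 fell (17.9%) in microglia-like cells at 1 h. Of all genes tested 14.0% rose and 12.6% fell. The median log2 change of the list was -0.10 beside -0.02 for all genes. At 3 h 10 rose and 10 fell (25.6% each), near the 24.5% and 23.0% of all genes. Btg2, which binds the deadenylase, fell by 1.22 at 1 h (SE 0.11, edgeR adjusted p = 0.000102) and by 1.28 at 3 h. The subunits Cnot9 and Cnot3 and the decapping factor Dcp1b fell by 0.48, 0.47 and 0.47 at 1 h. At 3 h Dis3, the nuclease of the exosome, rose by 0.59 and Cnot8, a deadenylase subunit, fell by 0.58. Of 20 genes that bind AU-rich elements or regulate the Zfp36 proteins, 4 rose and 5 fell at 1 h (median -0.00054), where 14.0% of all genes rose and 12.6% fell. At 3 h 9 rose and 4 fell (median 0.17), where 24.5% rose and 23.0% fell. Mapkapk2, the kinase that phosphorylates Zfp36 and holds it inactive, rose by 0.82 at 1 h (SE 0.12, adjusted p = 0.00374) and 0.98 at 3 h, and Dusp1, the phosphatase that turns off its upstream kinase p38, changed by -1.33 at 1 h (SE 0.10, adjusted p = 3.71e-05) and rose by 1.20 from 1 h to 3 h. Ywhaz, a 14-3-3 protein that binds phosphorylated Zfp36, fell by 1.09 at 1 h. Elavl1, which stabilises AU-rich messages, rose by 0.43. At 3 h Zc3h12c, Zc3h12a (Regnase-1, a nuclease for cytokine messages) and Arid5a, which opposes it, rose by 2.41, 0.78 and 1.03.

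Messages known to be bound by Zfp36 rose mainly at 3 h. Of 30 tested, 8 rose (26.7%) and 6 fell (20%) in microglia-like cells at 1 h, with a median of -0.06. Of all genes 14.0% rose and 12.6% fell, so both shares were already above the background at 1 h. At 3 h 20 rose (66.7%) and 4 fell (13.3%), where 24.5% of all genes rose and 23.0% fell. The median was then 1.27 beside -0.02 for all genes. At 1 h the surface protein gene Cd83 rose by 2.92, Cxcl2 by 2.88 and the prostaglandin synthase gene Ptgs2 by 2.23, while Nfkbiz, a regulator of NF-kB target genes, fell by 2.47. At 3 h Cxcl2 rose by 7.20, Ptgs2 by 5.87, Cxcl1 by 7.51 and Cxcl3 by 9.22, fitted values that depend on low naive counts. The list was built from genes that are also known for their induction in activated macrophages, and it holds Zfp36 itself. In neutrophil-like cells 16 of 25 rose and 1 fell at 3 h (median 1.27), where 18.0% of all genes rose and 11.4% fell. In monocyte-like cells 11 of 27 rose and 2 fell (median 0.48), where 10.0% rose and 11.3% fell. Taken by sequence alone, 1044 tested genes hold TTATTTATT in the 3' UTR. In microglia-like cells 127 of them rose (12.2%) and 195 fell (18.7%) at 1 h, with a median of -0.09. At 3 h 341 rose (32.7%) and 190 fell (18.2%), with a median of 0.11. Among 10748 tested genes with a 3' UTR and no such element 1576 rose (14.7%) and 1230 fell (11.4%) at 1 h. At 3 h 2545 of these rose (23.7%) and 2613 fell (24.3%), with a median of -0.04. From 1 h to 3 h 392 rose (37.5%) and 126 fell (12.1%) with the element. Without it 2551 rose (23.7%) and 2615 fell (24.3%), where 25.1% of all genes rose and 21.8% fell. Each gene was represented by the transcript with the most elements, then the longest 3' UTR. The length of the 3' UTR was not accounted for.

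Of 32 tested genes for the corepressors of KRAB proteins and heterochromatin, 3 rose and 6 fell in microglia-like cells at 1 h. Their median was -0.07, where 14.0% of all genes rose, 12.6% fell and 26.6% changed. At 3 h 7 rose and 6 fell (median -0.08), where 24.5% of all genes rose, 23.0% fell and 47.5% changed. From 1 h to 3 h 10 rose and 7 fell, where 25.1% of all genes rose, 21.8% fell and 46.9% changed. At 1 h Uhrf1 and Dnmt1, of maintenance DNA methylation, fell by 1.31 and 0.51, and Chd4, of the NuRD complex, by 0.49, while the histone chaperone Rbbp7 rose by 0.37. At 3 h Suv39h2, a histone methyltransferase, rose by 1.28, Chd3 by 0.91, and Pphln1 and Mphosph8, both of the HUSH silencing complex, by 0.64 each. In neutrophil-like cells 1 of 30 rose and 10 fell at 3 h, where 18.0% of all genes rose and 11.4% fell. The median was -0.68 beside -0.07 for all genes. The falls were led by Dnmt1, with a change of -2.19, in the same libraries in which the share of cluster 8 was low. In monocyte-like cells 1 of 32 rose and 7 fell at 3 h (median -0.32), where 10.0% of all genes rose and 11.3% fell. Uhrf1 fell by 3.70 there. The part of the change in cluster make-up in these counts was not tested.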

How the data were processed

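Single-cell RNA libraries of CD45-positive brain cells were analysed from 6 filtered count matrices. The authors ran Cell Ranger 3.0.2 against mm10, per the submitters' processing notes, and deposited raw UMI counts per gene and barcode. Barcodes were kept if they had 300 genes or more and no more than 10% mitochondrial UMIs (50634 of 51005). Scrublet's automatic threshold marked only 433 barcodes and was not used; the barcodes with the highest scores, 0.8% per 1000 barcodes, were removed (3557). Cells were scaled to 10000 UMIs and log-transformed, and 2000 variable genes, 30 principal components and 15 neighbours gave 20 Leiden clusters at resolution 1 (scanpy 1.11.5, Python 3.11.15). A cluster was named where at least 3 markers of a class were seen in 10% of its cells and its top 10 genes did not go against the name; clusters 7 and 11, of mixed lymphocytes and of mixed myeloid cells, were divided again, and 235 cells stayed unnamed.

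UMIs were summed per library and class and tested with edgeR 4.0.16 (R 4.3.3; robust quasi-likelihood, TMM, filterByExpr, Benjamini-Hochberg at 0.05 over all genes tested) in a model with genotype and time, which leaves 2 residual degrees of freedom. The SE is the log2 fold change over the square root of F. Class by time interactions used a library block. On counts simulated for 3 h against naive, edgeR recovered 93 of 100 genes changed by 1 log2 unit among 12824 genes in microglia-like cells, 67 of 100 among 8117 in neutrophil-like cells and 75 of 100 among 9793 in monocyte-like cells. The simulation gave every class the same spread. This was below the fitted biological coefficient of variation of 0.206 in neutrophil-like and 0.144 in monocyte-like cells. It also changed only genes above a count limit, so recovery of members there can be lower. CPM scales UMIs to the class total of the library; intervals are exact Poisson or, for ratios, log-normal, at 95%.

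Groups of members came from C2H2 and KRAB patterns searched in coding sequences translated from the GENCODE M21 annotation (GRCm38). The planned rule, without a protein table, was 1 group for all but the Zfp36 group, so this division was added later; it misses some KRAB genes, among them Zfp445 and Zfp263, which stand under other C2H2. Promoters are from RefSeq (GRCm38.p6). Members and lists were chosen with earlier results of these data known. Named members are, for microglia-like cells, the 8 called KRAB-type and the 8 other called members with the largest change per contrast of times (4 each in the other classes, 5 per interaction), the Zfp36 group, and the members with most UMIs or the highest level in a class. Alternatives were DESeq2 1.42.0, RLE factors, totals alone, no low-count filter, a stricter cell filter (1000 genes, 5% mitochondrial UMIs), no doublet removal, leaving out cells with S100a8 or S100a9, the cluster led by Csmd3, and each library.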

Additional observations from a re-analysis of the deposited data

Results flagged for a closer look

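Tests of the difference between classes set these members apart, as the log2 change in microglia-like cells minus that in the other class. Against neutrophil-like cells the Zfp36 difference was -1.33 at 1 h and -1.25 at 3 h, and at 3 h the differences were -2.54 for Zfp36l1, -1.26 for Zfp36l2, 3.02 for Zfp367, 2.43 for Zfp704 and 2.39 for Zfp516. Zfp951 gave 9.19, but its neutrophil-like sums held 0 to 3 UMIs in each library, so the fitted value depends on the prior count. Against monocyte-like cells the differences at 1 h were -0.92 for Zfp36 and 0.70 for Zfp36l2, and at 3 h 2.503 for Zfp367, -2.46 for Zfp658, -1.75 for Zfp719, -1.28 for Zfp617 and -1.17 for Zfp429. Zfp367 and Zfp704 had 1 to 32 UMIs per library in neutrophil-like cells, and both differences there were lost without fl/fl 3 h, Lyz2-cre 3 h or fl/fl naive (adjusted p from 0.0910 to 0.516). The Zfp617 and Zfp429 differences were lost without the same 3 libraries (adjusted p from 0.0938 to 0.373).

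For other members the fl/fl and the Lyz2-cre library moved in opposite directions from naive, a difference that was not tested, with 1 library on each side. In microglia-like cells at 1 h the log2 ratios in fl/fl and Lyz2-cre mice were 0.35 and -0.24 for Zfp655, 0.12 and -0.19 for Zfp263, 0.15 and -0.087 for Zfp871, and 0.24 and -0.17 for Zfp281. At 3 h they were -0.30 and 0.12 for Zfp36l2. In neutrophil-like cells they were 1.05 and -0.24 for Zfp36l2 at 1 h and -0.57 and 0.53 for Zfp622 at 3 h. In monocyte-like cells they were 0.52 and -0.40 for Zfp36l1 at 3 h and 2.06 and -0.86 for Zfp597 at 1 h, where the fl/fl naive library held 4 UMIs of Zfp597.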

How the results depend on the processing

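No paired analysis was possible because each genotype and time has 1 library, so no replicate number pairs samples. Genotype is a term of the model, so times are compared within genotype. Leaving out each library in turn leaves 1 residual degree of freedom, and the counts of members called then ran from 11 to 119 at 1 h, 43 to 109 at 3 h and 46 to 99 from 1 h to 3 h in microglia-like cells. In neutrophil-like cells they ran from 0 to 4, 4 to 23 and 5 to 23, and in monocyte-like cells from 0 to 1, 1 to 18 and 1 to 23. For genotype they ran from 0 to 1, 0 to 4 and 0 to 0 in the 3 classes. Members whose change at 3 h differed from microglia-like cells ran from 7 to 25 for neutrophil-like and 5 to 21 for monocyte-like cells.

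With DESeq2 the 3 microglia-like counts were 31, 69 and 61 (10.7%, 23.8% and 21.0% of members, where 16.9%, 33.4% and 34.5% of all genes were called), with 1 for genotype. At 3 h against naive and against 1 h they were 10 and 12 in neutrophil-like and 1 and 3 in monocyte-like cells. Totals alone gave 118 at 1 h in microglia-like cells. Without the low-count filter 1 member each was called for genotype in microglia-like and in neutrophil-like cells and for 1 h in neutrophil-like cells, and 13 differed between microglia-like and neutrophil-like cells at 3 h. The stricter cell filter gave 2, 10 and 1 in neutrophil-like cells for 1 h, 3 h and genotype, no doublet removal gave 15 from 1 h to 3 h, and leaving out cells with S100a8 or S100a9 gave 3 from 1 h to 3 h in monocyte-like cells. The cause of these shifts was not tested. The stricter filter also moved ratios of sums. The Zfp36 group ratios became 0.735 and 1.40 (fl/fl, 3 h to naive and to 1 h) and 0.853 and 1.78 (Lyz2-cre) in microglia-like cells, 0.851 (fl/fl, 3 h to naive), 0.574 and 0.684 (Lyz2-cre, 1 h and 3 h to naive) in monocyte-like cells, and 0.864 and 1.69 (fl/fl, 1 h to naive and 3 h to 1 h) and 0.677 and 2.73 (Lyz2-cre) in neutrophil-like cells. The KRAB-type ratios became 0.851 (fl/fl microglia-like, 3 h to naive) and 1.17 and 1.43 (Lyz2-cre neutrophil-like, 3 h to naive and to 1 h).

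Of the results recomputed, those whose direction turned were changes that had not passed the test. In microglia-like cells Zfp36l1 at 3 h became 0.018 without the cluster led by Csmd3. Zfp36l2 at 3 h became -0.029 without the low-count filter and -0.080 with totals alone, and ran from -0.20 to 0.20 when each library was left out. Its genotype change became 0.019 with totals alone and ran from -0.17 to 0.043 when each library was left out. In neutrophil-like cells at 1 h, leaving out libraries gave -0.31 to 0.22 for Zfp36, -0.57 to 0.31 for Zfp36l1 and -0.016 to 0.99 for Zfp36l2. In monocyte-like cells Zfp36l1 at 3 h became -0.099 without S100a8 or S100a9 cells and -0.0038 with totals alone, and ran from -0.26 to 0.84. Zfp36l2 from 1 h to 3 h became -0.17 and -0.041 under those settings. The class differences that turned were Zfp36l2 against neutrophil-like cells at 1 h (-0.65 to 0.43), Zfp36l1 against monocyte-like cells at 1 h (-0.70 to 0.25) and Zfp36l2 against monocyte-like cells at 3 h (-0.18 to 0.47).

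Depth limits the low members: the filter on low counts kept 131 of 290 in neutrophil-like and 201 in monocyte-like cells.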
